A study of Homo sapiens with 36 samples.

Results

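The genes described here are the nuclear-encoded subunits of the oxidative phosphorylation system, measured by RNA sequencing in 3 BRAF-mutant melanoma cell lines. They were taken by gene symbol: protein-coding genes named NDUFA, NDUFB, NDUFC, NDUFS or NDUFV with a number, SDHA to SDHD, every UQCR gene, COX4 to COX8 isoform genes, every ATP5 gene, and CYC1. This gave 87 members of the 60612 genes in the files: 36 of complex I, 4 of complex II, 10 of complex III, 17 of complex IV and 20 of complex V. NDUFA4 was placed in complex IV, where the protein belongs despite its name. The rule uses no measured value, though it was chosen with earlier results of these data known.

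Oxidative phosphorylation makes ATP in the inner mitochondrial membrane. Complex I (NADH dehydrogenase) and complex II (succinate dehydrogenase) pass electrons to coenzyme Q, complex III passes them to cytochrome c, and complex IV (cytochrome c oxidase) passes them to oxygen. Complexes I, III and IV pump protons, and complex V, the ATP synthase, uses the proton gradient. Mitochondrial DNA encodes a core of each complex except complex II, and the nucleus encodes the rest together with the assembly factors. In melanoma, oxidative phosphorylation is known as a fuel source that some cells rely on under BRAF inhibition, and PPARGC1A, a coactivator of mitochondrial genes that MITF can induce, is its best-known regulator there.

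The lines were 1205LuTR-NR2F1, WM793TR-NR2F1 and A375TR-NR2F1, called 1205Lu, WM793 and A375 here. All hold the Tet repressor and an inducible NR2F1 cDNA, which is transcribed once doxycycline (DOX) is added, so the control groups carry both elements too. NR2F1 is an orphan nuclear receptor and a transcription factor. Each line was sequenced under 4 treatments with 3 replicates each, which makes 12 groups and 36 libraries. The DMSO group received vehicle. The DMSO + DOX group received 100 ng/mL DOX. The BRAFi + MEKi group received 1 µM PLX4720, a BRAF inhibitor, and 35 nM PD0325901, a MEK inhibitor. The BRAFi + MEKi + DOX group received both. Treatment lasted 72 h and followed a day of culture for which the sources differ: the labels give 24 h with or without DOX, whereas the methods of the study name DOX and make no exception. Whether the groups without DOX met it in that period is therefore not settled, and this bears on every DOX comparison. WM793 and 1205Lu are related, since 1205Lu was derived from WM793 by passage in mice. No library came from cells given DOX without the NR2F1 cDNA, so NR2F1 and DOX itself cannot be told apart. 1205Lu and WM793 were grown in one medium and A375 in another, so line and medium cannot be told apart in comparisons with A375.

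The unit throughout is the normalised read count of a gene in a library, as deposited, which is not divided by gene length. The sums of these values over all genes ran from 27027824 to 34621958 per library with a median of 30838343. They do not give the sequencing depth, which is unknown here. The sums were lower under the inhibitors, 28572328 to 29958306 against 33385432 to 34621958 in the DMSO group of WM793 and 27027824 to 27321117 against 29642411 to 31192155 in A375. In bulk RNA, fewer cells of a type and less RNA per cell cannot be told apart. NR2F1 lay at 2182 to 6273 under DMSO and 9155 to 20699 under DMSO + DOX in 1205Lu, at 321 to 1511 and 52746 to 76313 in WM793, and at 405 to 563 and 17271 to 31632 in A375. The groups did not overlap, and NR2F1 rose past the threshold in WM793 and A375 and, under the inhibitors, in all 3 lines, while in 1205Lu under DMSO the log2 fold change was 1.93 ± 0.38 (SE, adjusted p = 0.412). The melanocytic markers MITF, SOX10, PMEL, DCT and S100B had a mean of at least 10 in each line, while MLANA and TYR did not. Of the 3 immune markers, none reached that mean in any line. Of the keratinocyte and endothelial markers, KRT14 and VWF did in 1205Lu and A375.

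Promoter sequences are shown for 4 members around which the results turn: SDHB, UQCRH and NDUFB8, which fell with the inhibitors in all 3 lines, and UQCRFS1, the one member called with DOX. Each is 300 bases, from 250 before to 50 after the start of the gene, from RefSeq on GRCh38.p14, written 5′ to 3′ on the strand of the gene. Capitals mark exact matches, on either strand, to the ETS motif CCGGAAG bound by GABP or to AAGATGGCG, bound by YY1.
SDHB, chr1:17053983-17054282, minus strand: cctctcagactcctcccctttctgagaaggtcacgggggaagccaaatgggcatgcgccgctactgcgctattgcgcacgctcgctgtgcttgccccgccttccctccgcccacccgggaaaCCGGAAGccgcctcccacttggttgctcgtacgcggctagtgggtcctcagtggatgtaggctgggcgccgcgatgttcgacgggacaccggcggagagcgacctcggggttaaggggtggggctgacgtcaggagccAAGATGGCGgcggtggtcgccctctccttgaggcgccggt
UQCRH, chr1:46303448-46303747, plus strand: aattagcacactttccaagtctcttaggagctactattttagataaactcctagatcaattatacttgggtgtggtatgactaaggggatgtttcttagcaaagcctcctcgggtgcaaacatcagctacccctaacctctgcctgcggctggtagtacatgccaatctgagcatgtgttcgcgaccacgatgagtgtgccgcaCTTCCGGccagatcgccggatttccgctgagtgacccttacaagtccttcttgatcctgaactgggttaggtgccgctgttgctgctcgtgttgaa
NDUFB8, chr10:100529874-100530173, minus strand: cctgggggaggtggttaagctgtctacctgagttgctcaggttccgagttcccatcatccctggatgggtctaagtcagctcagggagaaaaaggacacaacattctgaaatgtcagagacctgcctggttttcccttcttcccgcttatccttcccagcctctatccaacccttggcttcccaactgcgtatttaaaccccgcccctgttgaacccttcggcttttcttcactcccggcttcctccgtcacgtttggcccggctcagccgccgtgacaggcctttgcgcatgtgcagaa
UQCRFS1, chr19:29213102-29213401, minus strand: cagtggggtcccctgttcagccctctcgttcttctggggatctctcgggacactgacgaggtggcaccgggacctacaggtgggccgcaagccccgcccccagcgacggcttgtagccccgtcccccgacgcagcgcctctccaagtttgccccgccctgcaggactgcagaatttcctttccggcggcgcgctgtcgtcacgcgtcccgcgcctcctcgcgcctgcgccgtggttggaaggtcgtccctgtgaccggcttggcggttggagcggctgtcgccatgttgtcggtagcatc
The SDHB window holds both motifs and the UQCRH window holds the ETS motif, whereas the NDUFB8 and UQCRFS1 windows hold neither string. Promoters matched 68 of the 87 members by symbol, among 27305 promoters of this length. The ETS string was in 20 of the 68, or 29.4%, and in 10.67% of all promoters. The YY1 string was in 8, or 11.8%, and in 1.85% of all. A palindromic NRF1 string of 10 bases was in 4, or 5.9%, and in 1.36% of all. The E-box CACGTG, which MYC can bind, was in 7, or 10.3%, and in 7.43% of all. The nuclear receptor hexamer AGGTCA, which the longer ERR string TCAAGGTCA contains, was in 17, or 25.0%, and in 13.94% of all, and the ERR string itself was in 1 member, SDHD, and in 0.36% of all. Of the members that fell with the inhibitors in all 3 lines, 9 had a promoter, of which 3 held the ETS string, 2 the YY1 string and 0 the NRF1 string. The E-box was in 1 of the 9, AGGTCA in 2 and the ERR string in 0. The ETS share of the 9, 33.3%, was near the 29.4% of the 68. These matches describe the letters of the window only.

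Of the 87 members, 81 had a mean of at least 1 in some group of every line and were tested. The other 6 were tissue-restricted isoforms or a near copy. COX4I2, COX6A2, COX7A1, COX7B2 and ATP5MGL were listed at 0 in all 36 libraries, and COX8C was at 0 in all but 2 libraries, with a highest value of 1.04. Of these isoform pairs of complex IV, the form found in most tissues carried the reads: COX4I1, COX6A1, COX7A2, COX7B and COX8A. COX6B2, known from testis, was the one minor isoform above this floor, with DMSO means per kb of transcript of 47.4 in 1205Lu, 39.4 in WM793 and 12.2 in A375 beside 8688, 9476 and 13474 for COX6B1.

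Levels of different genes can be compared per length only. Per kb of the canonical transcript and under DMSO, the highest members of 1205Lu were NDUFB8 at 18866 ± 1776 (SD, n = 3), COX4I1 at 12976 ± 562 and ATP5F1B at 11931 ± 1858. Those of WM793 were ATP5MF at 16251 ± 1393 and ATP5F1B at 14891 ± 419. In A375 they were UQCRH at 20413 ± 423, ATP5MC2 at 18367 ± 647 and ATP5F1B at 17873 ± 1140. ATP5F1B, the catalytic beta subunit of the ATP synthase, was thus near the top in each line, and NDUFV3, an accessory subunit of complex I, was near the bottom at 168, 179 and 140 per kb in 1205Lu, WM793 and A375. The lengths are of 1 annotated transcript a gene, so a gene that uses another isoform is misplaced on this scale.

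**Figure D1:**
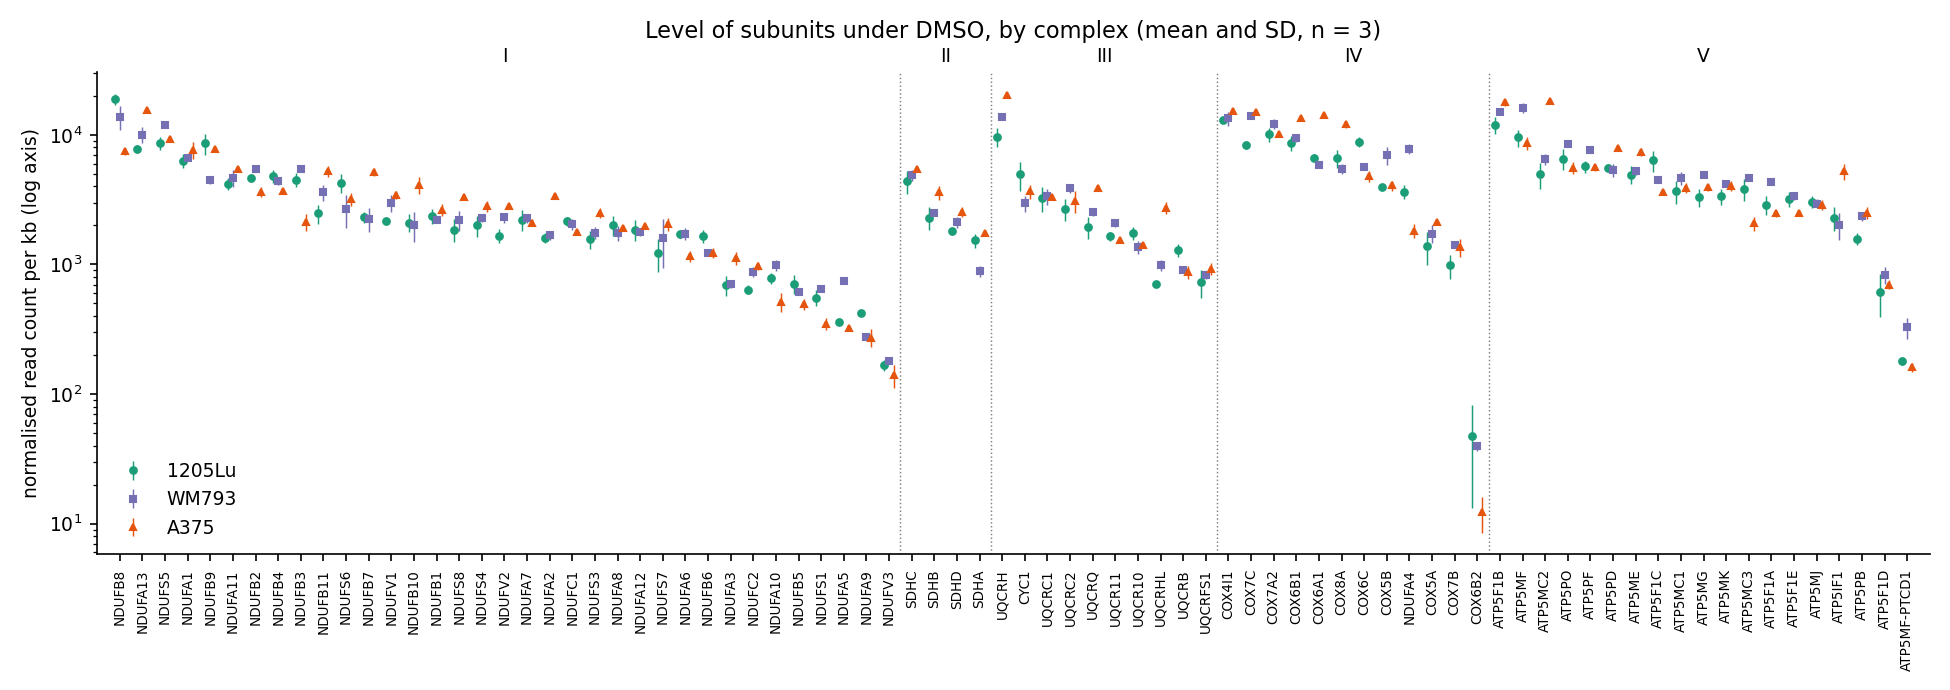
Level of 80 of the 81 tested members under DMSO, in normalised read count per kb on a log axis, ordered within each complex by the mean over lines. Points are means and bars SD of 3 libraries for 1205Lu, WM793 and A375; NDUFA4, UQCRHL and ATP5MC2 show wide gaps between lines, and COX6B2 lies below all the others.

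The untreated lines differed in many members. Between 1205Lu and WM793, grown in the same medium, 11 members were higher in 1205Lu and 24 lower, while 30.7% of all genes tested passed in either direction. The 11 became 7 when replicates were blocked by number, and the 24 ran from 16, without the first DMSO library of 1205Lu, to 30, without the second. Against A375, 17 were higher and 34 lower in 1205Lu (46.8% of all genes), and 21 were higher and 26 lower in WM793 (47.5% of all genes). NDUFA4 showed the widest contrast. Its DMSO libraries held 6448, 8304 and 7540 in 1205Lu, 14590, 17197 and 15757 in WM793 and 3944, 4026 and 3159 in A375. The 3 lines did not overlap, and WM793 exceeded A375 by a log2 difference of 2.10 ± 0.12 (SE, adjusted p = 8.45e-15). ATP5MC2, 1 of 3 genes for the same c-ring protein of the ATP synthase, was highest in A375: 2375, 3770 and 3256 in 1205Lu, 3642, 4472 and 4149 in WM793 and 12074, 11310 and 11439 in A375. The A375 libraries were all above the others, by a log2 difference of -1.91 ± 0.13 (SE, adjusted p = 1.84e-13) for 1205Lu minus A375. ATP5MC3 went the other way, with 8289, 11971 and 9492 in 1205Lu, 11348, 12469 and 11926 in WM793 and 5919, 5505 and 4665 in A375. Neither A375 group overlapped that of another line in these c-ring genes. SDHA, the flavoprotein of complex II, was lower in WM793 (2121, 2456 and 2583) than in 1205Lu (3605, 4633 and 4163) and A375 (4865, 4655 and 4553), which did not differ past the threshold (log2 difference -0.19, adjusted p = 0.185). ATP5IF1, the inhibitor of ATP hydrolysis by the synthase, was higher in A375 (2917, 2221 and 2780) than in WM793 (903, 852 and 1286), with a log2 difference for WM793 minus A375 of -1.39 ± 0.27 (SE, adjusted p = 8.4e-05).

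BRAFi + MEKi was compared with DMSO in each line, which asks how the inhibitors alone bear on these genes. Members past the threshold were mostly lower. In 1205Lu, 20 of the 81 tested members were lower and 3 higher, where 14.4% of all genes were lower and 16.5% higher. In WM793, 59 were lower and 2 higher, where 16.9% of all genes were lower and 20.4% higher. In A375, 35 were lower and 2 higher, where 19% of all genes were lower and 20.5% higher. Median log2 fold changes of the members were -0.178 in 1205Lu, -0.574 in WM793 and -0.339 in A375, beside 0.108, 0.15 and 0.0637 over all genes tested. With a filter at a mean of 30, the medians over all genes were 0.0318, 0.0435 and 0.0338. All genes tested include genes at far lower values than most members, and no share was taken over genes of like level. The inhibitor libraries lay entirely below the DMSO libraries for 26, 62 and 59 members (19.3%, 19.9% and 24.7% of all genes). Members move together between libraries, so these are not independent counts: the first DMSO library of 1205Lu was the lowest of its group for 70 of 81 members. The members that made up complexes I to V took 0.918% of the library sum under DMSO and 0.791% under BRAFi + MEKi in 1205Lu, 1.03% and 0.743% in WM793, and 1.13% and 0.974% in A375.

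**Figure D2:**
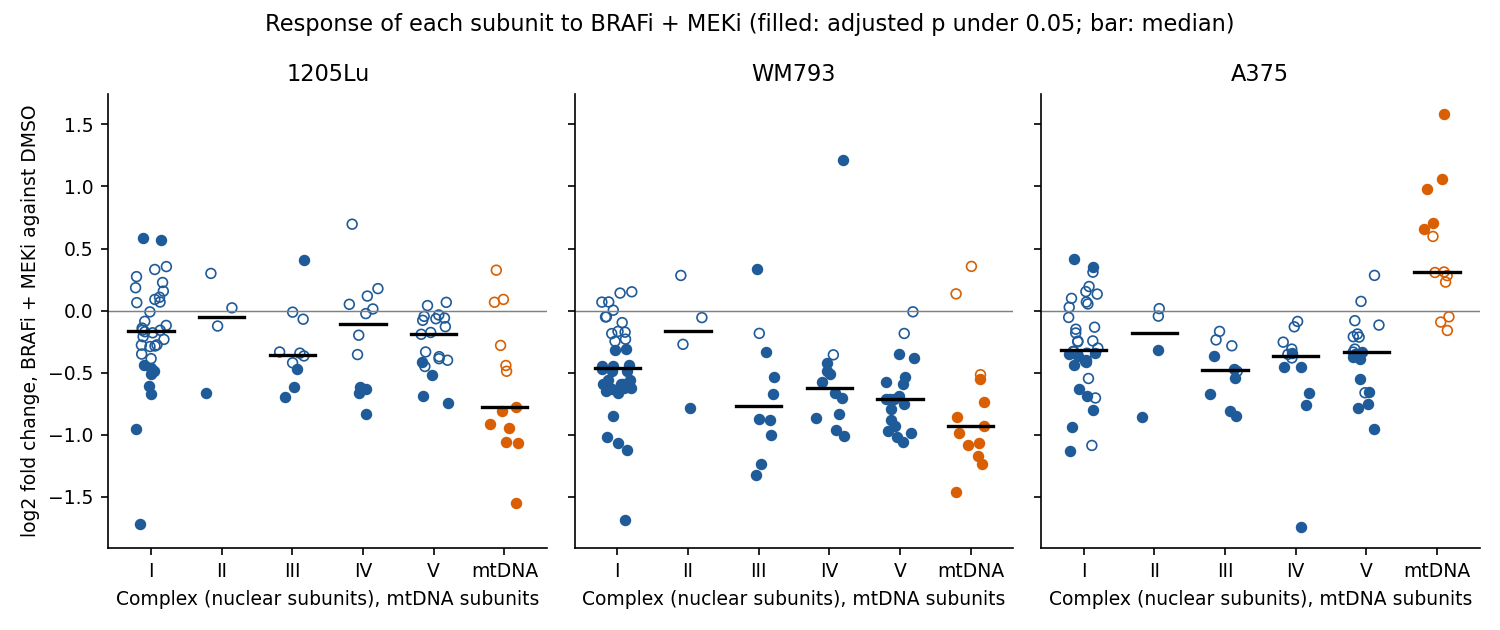
Log2 fold change of BRAFi + MEKi against DMSO for each tested nuclear-encoded member by complex (blue) and for the 13 subunits encoded by mitochondrial DNA (orange), in 1 panel per line. Filled points passed an adjusted p of 0.05 and bars are medians; the nuclear medians lie below 0 for each complex in each line, and the mitochondrial median is below 0 in 1205Lu and WM793 and above 0 in A375.

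The counts moved with the scaling of the libraries. When each library was rescaled to the same sum, the median of all genes rose to 0.163, 0.328 and 0.204 in 1205Lu, WM793 and A375. The member medians moved with it, to -0.117, -0.369 and -0.185, since rescaling shifts all genes of a library alike. Under that scaling A375 had 17 members lower and 5 higher, WM793 had 5 higher, and 1205Lu had 6 higher. The shares of all genes given above, such as 19% lower in A375, belong to the main fit. Whether these rescaled counts exceed the share of all genes under the same scaling is therefore not shown. The A375 count moved the other way, to 53 lower, when only the 2 groups compared were fitted. The 1205Lu count also rested on single libraries. It was 9 without the second DMSO library, 10 without the third DMSO library, 12 without the first BRAFi + MEKi library and 10 without the third. The A375 count was 18 without the first DMSO library.

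Complex I contributed 8 members lower and 2 higher of 36 in 1205Lu, 23 lower and none higher in WM793, and 12 lower and 2 higher in A375. Of all genes, 14.4% were lower and 16.5% higher in 1205Lu, 16.9% and 20.4% in WM793, and 19% and 20.5% in A375. NDUFB8, an accessory subunit of its membrane arm, fell furthest of the complex I members in each line. Its DMSO libraries held 11652, 12672 and 14050 in 1205Lu, 7160, 10720 and 10220 in WM793 and 5171, 5327 and 4709 in A375. Its BRAFi + MEKi libraries held 3970, 4054 and 3600 in 1205Lu, 2660, 2897 and 3066 in WM793 and 2271, 2472 and 2206 in A375. No inhibitor library reached its DMSO group in any line. The log2 fold changes were -1.72 ± 0.14 (SE, adjusted p = 1.87e-06) in 1205Lu, -1.68 ± 0.14 (SE, adjusted p = 1.05e-06) in WM793 and -1.13 ± 0.14 (SE, adjusted p = 1.99e-05) in A375. The gene lies at chr10:100523740-100530000 on the minus strand of GRCh38 and shares exon sequence with a readthrough gene (ENSG00000255339) on the same strand, so reads may be split between them. The readthrough gene had means of 320 under DMSO and 132 under BRAFi + MEKi in 1205Lu, 259 and 110.5 in WM793, and 135 and 280 in A375.

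Of the core subunits of complex I that carry iron-sulfur clusters or bind NADH, NDUFS1 fell in all 3 lines. It held 5940, 5970 and 7515 under DMSO and 4236, 4628 and 4683 under BRAFi + MEKi in 1205Lu, 7130, 8050 and 7476 against 5271, 5239 and 5672 in WM793, and 4432, 4242 and 3560 against 2660, 2635 and 2278 in A375. The groups did not overlap, with log2 fold changes of -0.51 ± 0.16 (SE, adjusted p = 0.0262), -0.48 ± 0.09 (SE, adjusted p = 0.00121) and -0.69 ± 0.12 (SE, adjusted p = 0.000545). In 1205Lu, NDUFS1 lost its call without the third DMSO library and without any single BRAFi + MEKi library. NDUFV1, which holds the NADH site, fell in WM793 at -0.45 (adjusted p = 0.00816) and A375 at -0.43 (adjusted p = 0.0112), and was at -0.28 (adjusted p = 0.152) in 1205Lu. NDUFV2 fell in the same lines, by a log2 value of -1.02 (adjusted p = 6.09e-06) in WM793. NDUFS8, which holds iron-sulfur clusters on the way to coenzyme Q, fell in 1205Lu at -0.95 (adjusted p = 0.00123) and WM793 at -0.56 (adjusted p = 0.012) and was at -0.70 (adjusted p = 0.0743) in A375. NDUFS7, which holds the last cluster before coenzyme Q, was not called, at -0.21 (adjusted p = 0.524) in 1205Lu, 0.07 (adjusted p = 0.862) in WM793 and -1.08 (adjusted p = 0.0933) in A375, and its libraries overlapped in 1205Lu and WM793. The accessory subunits NDUFA9, NDUFB9, NDUFS5 and NDUFS6 fell in all 3 lines, with NDUFB9 and NDUFS5 at -1.12 and -1.06 in WM793 and -0.49 and -0.46 in 1205Lu. NDUFS6 overlapped its DMSO group in WM793. When single libraries were left out, NDUFB9 kept its call in 1205Lu only without the first DMSO library. NDUFS6 kept its call there only without the second BRAFi + MEKi library. NDUFA9 kept its call in A375 only without the third DMSO library. With a pseudocount of 0.1 or without a filter, NDUFB9 was not lower in all 3 lines.

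A few accessory subunits of complex I rose. In each line they were a smaller share than the genes higher among all genes, 16.5% in 1205Lu, 20.4% in WM793 and 20.5% in A375. NDUFB1 held 658, 740 and 851 under DMSO and 1217, 1106 and 1036 under BRAFi + MEKi in 1205Lu, and 919, 863 and 738 against 1145, 1087 and 976 in A375. All inhibitor libraries were above DMSO in both lines, with log2 fold changes of 0.58 ± 0.16 (SE, adjusted p = 0.0124) and 0.35 ± 0.13 (SE, adjusted p = 0.0488). In WM793 it was at 0.14 (adjusted p = 0.4). NDUFA5 rose in 1205Lu from 1935, 2037 and 1916 to 2564, 3167 and 3026, log2 fold change 0.57 ± 0.16 (SE, adjusted p = 0.014), and was at -0.10 (adjusted p = 0.495) in WM793. NDUFB2 split the lines: it rose in A375 from 1777, 1531 and 1758 to 2168, 2296 and 2287 and fell in WM793 from 2373, 2537 and 2628 to 1479, 1722 and 1564, with log2 fold changes of 0.42 ± 0.13 (SE, adjusted p = 0.0193) and -0.66 ± 0.10 (SE, adjusted p = 0.000201). Without the second DMSO library of A375, 0 members were called higher in that line, so NDUFB1 and NDUFB2 both lost their call there. The number higher in A375, 2 in the main fit, was lower in 4 of the 6 fits that left out 1 library. NDUFB2 overlaps exons of BRAF on the other strand, and the library kit does not mark strand.

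In complex II the one subunit that fell in all 3 lines was SDHB. This iron-sulfur protein held 1890, 2815 and 2294 under DMSO and 1459, 1574 and 1330 under BRAFi + MEKi in 1205Lu. In WM793 it held 2466, 2609 and 2546 against 1502, 1450 and 1462, and in A375 3968, 3876 and 3145 against 2007, 2049 and 1982. Every inhibitor library was below every DMSO library of its line, with log2 fold changes of -0.67 ± 0.17 (SE, adjusted p = 0.00852), -0.79 ± 0.09 (SE, adjusted p = 1.65e-05) and -0.86 ± 0.11 (SE, adjusted p = 3.19e-05). SDHA was lower in A375 (-0.32, adjusted p = 0.0198) and at -0.12 (adjusted p = 0.531) in 1205Lu and -0.06 (adjusted p = 0.76) in WM793. The membrane anchors were not called: SDHC was at 0.02, -0.27 and 0.02, and SDHD at 0.30, 0.28 and -0.04, in 1205Lu, WM793 and A375. The SDHD libraries lay above DMSO without overlap in 1205Lu and WM793, with adjusted p of 0.0571 and 0.0791. The median over the 4 subunits was -0.0505 and -0.163 in these lines and turned to 0.0101 and 0.042 with libraries rescaled to the same sum.

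Complex III gave 3 lower and 1 higher of 10 in 1205Lu, 8 and 1 in WM793, and 6 and 0 in A375. The shares of all genes lower and higher were 14.4% and 16.5%, 16.9% and 20.4%, and 19% and 20.5% in these lines. UQCRH, the hinge protein at the cytochrome c1 dock, held 4172, 5578 and 5848 under DMSO and 3011, 3645 and 3475 under BRAFi + MEKi in 1205Lu, 7096, 7931 and 7288 against 3270, 3034 and 3155 in WM793, and 11218, 10886 and 10783 against 6370, 6716 and 7638 in A375. The log2 fold changes were -0.61 ± 0.16 (SE, adjusted p = 0.0106), -1.24 ± 0.10 (SE, adjusted p = 7.83e-07) and -0.67 ± 0.09 (SE, adjusted p = 7.06e-05). UQCRHL is a near-identical intron-less copy, so the split of reads between the pair is uncertain; it was -0.42 (adjusted p = 0.15), -1.32 (adjusted p = 0.000163) and -0.81 (adjusted p = 0.00123). CYC1, cytochrome c1, fell from 4483, 7420 and 5760 to 3482, 3840 and 3362 in 1205Lu, from 2982, 3708 and 3871 to 2013, 2278 and 2309 in WM793, and from 4830, 4475 and 3755 to 2903, 3052 and 2969 in A375. The groups did not overlap and the log2 fold changes were -0.70 ± 0.19 (SE, adjusted p = 0.0125), -0.67 ± 0.12 (SE, adjusted p = 0.000457) and -0.54 ± 0.14 (SE, adjusted p = 0.00595). UQCRC1, a core protein of the matrix side, fell furthest of complex III in A375 (-0.85, adjusted p = 5.61e-05), fell in 1205Lu with overlapping libraries (-0.47, adjusted p = 0.0337) and was at -0.18 (adjusted p = 0.288) in WM793. UQCR10, a small membrane subunit, rose in 1205Lu from 1406, 1616 and 1779 to 2105, 2234 and 2010 and in WM793 from 1091, 1318 and 1351 to 1551, 1500 and 1683. In A375 it fell from 1385, 1263 and 1260 to 997, 956 and 863. The log2 fold changes were 0.41 ± 0.14 (SE, adjusted p = 0.0442), 0.34 ± 0.11 (SE, adjusted p = 0.0275) and -0.47 ± 0.14 (SE, adjusted p = 0.0126). Without the third BRAFi + MEKi library of WM793, 0 members were called higher in that line, so UQCR10 lost its call there. The number higher in WM793, 2 in the main fit, was lower in 4 of the 6 fits that left out 1 library. When only the groups compared were fitted, complex III had 0 members higher in 1205Lu and 0 in WM793. The rise of UQCR10 thus passed in neither line under that fit.

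Complex IV had 4 lower and 0 higher of 12 tested in 1205Lu, 10 and 1 in WM793, and 6 and 0 in A375. Beside these, 14.4% of all genes were lower and 16.5% higher in 1205Lu, 16.9% and 20.4% in WM793, and 19% and 20.5% in A375. COX5A, a matrix-side subunit, held 1325, 2168 and 1410 under DMSO and 951, 1213 and 950 under BRAFi + MEKi in 1205Lu. In WM793 it held 1697, 2076 and 2320 against 1131, 1219 and 1372, and in A375 2553, 2406 and 2488 against 1557, 1550 and 1588. It fell in all 3 lines, by log2 values of -0.63 ± 0.19 (SE, adjusted p = 0.0219), -0.70 ± 0.13 (SE, adjusted p = 0.000637) and -0.66 ± 0.12 (SE, adjusted p = 0.000441). COX7A2 also fell in each, at -0.67 (adjusted p = 0.00364), -0.84 (adjusted p = 7.83e-05) and -0.34 (adjusted p = 0.0332). When single libraries were left out, COX7A2 kept its call in A375 only without DMSO replicate 2 or BRAFi + MEKi replicate 3. With libraries rescaled to the same sum, COX7A2 was not lower in all 3 lines. COX4I1 fell in WM793 (-0.42, adjusted p = 0.00453) and was at -0.20 (adjusted p = 0.266) in 1205Lu and -0.09 (adjusted p = 0.479) in A375. COX8A fell in 1205Lu (-0.83, adjusted p = 0.00791) and A375 (-0.76, adjusted p = 0.0171) and was at -0.36 (adjusted p = 0.0532) in WM793. COX6B2, low throughout, moved in opposite directions: from 67.1, 57.5 and 60.4 to 154, 137 and 141 in WM793 and from 14.4, 17.5 and 25.7 to 5.04, 2.2 and 9.46 in A375, with log2 fold changes of 1.21 ± 0.37 (SE, adjusted p = 0.0203) and -1.74 ± 0.61 (SE, adjusted p = 0.0364) on the log2(value + 1) scale, which understates changes of low genes. The rise of COX6B2 in WM793 lost its call without the third BRAFi + MEKi library. This gene shares exon sequence with another gene on its strand.

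Of the 19 complex V members tested, 4 were lower in 1205Lu, 17 in WM793 and 9 in A375. None was higher. Lower genes made up 14.4%, 16.9% and 19% of all genes in these lines, and higher genes 16.5%, 20.4% and 20.5%. ATP5F1B held 17933, 24432 and 20593 under DMSO and 12550, 14158 and 12255 under BRAFi + MEKi in 1205Lu, 25346, 26674 and 26562 against 12636, 12727 and 13434 in WM793, and 33666, 30865 and 29782 against 18194, 18556 and 19187 in A375. The inhibitor libraries were below DMSO without overlap in each, with log2 fold changes of -0.68 ± 0.17 (SE, adjusted p = 0.00726), -1.02 ± 0.09 (SE, adjusted p = 1.47e-06) and -0.75 ± 0.09 (SE, adjusted p = 1.25e-05). Its partner ATP5F1A, the alpha subunit, fell in WM793 (-0.93, adjusted p = 5.34e-05) and A375 (-0.33, adjusted p = 0.0141) and was at -0.37 (adjusted p = 0.166) in 1205Lu with overlapping libraries. Of the c-ring genes, ATP5MC1 fell in all 3 lines, at -0.74 (adjusted p = 0.0179), -0.98 (adjusted p = 4.17e-05) and -0.37 (adjusted p = 0.035). When single libraries were left out, ATP5MC1 kept its call in A375 only without DMSO replicate 3. In 1205Lu it lost its call without DMSO replicate 2, DMSO replicate 3 or BRAFi + MEKi replicate 1. With libraries rescaled to the same sum, ATP5MC1 was not lower in all 3 lines. ATP5MC2 and ATP5MC3 fell in WM793 (-0.97 and -1.05) and A375 (-0.96 and -0.65) and missed the threshold in 1205Lu, with adjusted p of 0.075 and 0.0764. ATP5IF1 was not called, at -0.19 (adjusted p = 0.471), -0.01 (adjusted p = 0.989) and -0.66 (adjusted p = 0.132). ATP5PD, a peripheral stalk subunit, was not called in any line either.

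**Figure D3:**
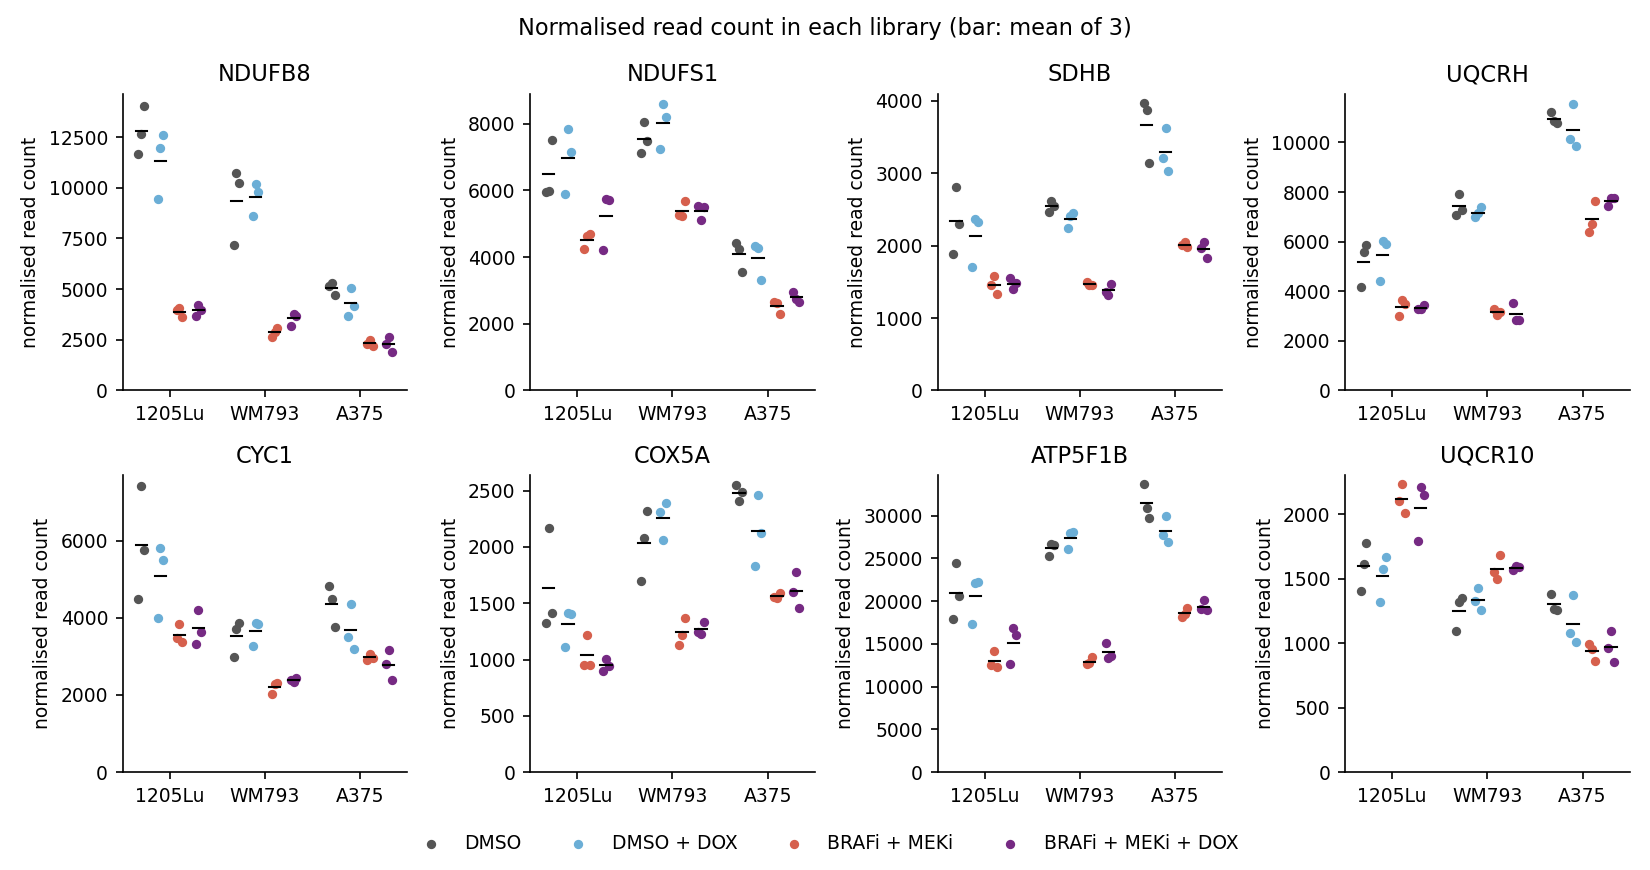
Normalised read count in every library for NDUFB8, NDUFS1, SDHB, UQCRH, CYC1, COX5A, ATP5F1B and UQCR10, by line and treatment, with the mean of 3 as a bar and axes from 0. The first 7 lie lower under BRAFi + MEKi with or without DOX than under DMSO in each line; UQCR10 lies higher in 1205Lu and WM793 and lower in A375.

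Across lines, 13 members were lower in all 3: NDUFA9, NDUFB8, NDUFB9, NDUFS1, NDUFS5, NDUFS6, SDHB, CYC1, UQCRH, COX5A, COX7A2, ATP5F1B and ATP5MC1. Each of the 5 complexes was represented. Of the 19420 genes tested in all 3 lines, 6.07% were lower in all 3. A further 22 members were lower in 2 lines and 31 in 1 line, for which the share of all genes was not counted. None was higher in all 3 lines, as 5.77% of all genes were. With libraries rescaled to the same sum, 8 of the 13 kept their call in each line (NDUFB8, NDUFS1, NDUFS5, SDHB, CYC1, UQCRH, COX5A and ATP5F1B), and NDUFB1 was then higher in all 3. The number lower in all 3 lines was 21 when replicates were blocked by number and 22 with array weights, the 13 included in both. Shares of all genes lower in all 3 lines were not counted under these alternative fits. Leaving out single libraries of 1205Lu left 6 to 12 of the 13 lower in that line, 6 of them without the second or the third DMSO library. In WM793 it left 12 or 13, and in A375 10 to 12.

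The lines differed in how far members fell, by the test of the difference between responses. The response of 1205Lu was higher, meaning a smaller fall or a rise, than that of WM793 for 22 members and lower for 0, where 6.52% of all genes were higher and 7.94% lower. Against A375 it was higher for 5 and lower for 2 (8.08% and 6.65% of all genes). The WM793 response was below that of A375 for 19 members and above it for 3 (10.1% and 12.7% of all genes). NDUFA4 gave the largest difference between 1205Lu and WM793, a log2 value of 1.13 ± 0.18 (SE, adjusted p = 3.64e-05). It held 7890, 7990 and 8177 under BRAFi + MEKi in 1205Lu and 7914, 7945 and 7710 in WM793, so that groups far apart under DMSO overlapped under the inhibitors. COX7C, another subunit of complex IV, differed by 0.93 ± 0.14 (SE, adjusted p = 3.12e-05), with 4823, 5324 and 5596 under DMSO and 5321, 5354 and 4802 under BRAFi + MEKi in 1205Lu beside 8952, 9005 and 8217 against 4791, 4292 and 4392 in WM793. COX5B differed by 0.92 (adjusted p = 0.0177). UQCR10 differed between 1205Lu and A375 by 0.88 ± 0.18 (SE, adjusted p = 0.000819) and between WM793 and A375 by 0.81 ± 0.18 (SE, adjusted p = 0.000943). NDUFB2 differed between WM793 and A375 by -1.08 ± 0.20 (SE, adjusted p = 0.000154). The counts of 1205Lu against A375 were the least stable: those lower ran from 0 to 4 and those higher from 1 to 5 when single libraries of either line were left out. The count of 22 for 1205Lu against WM793 was 13 with libraries rescaled to the same sum and 14 without the first DMSO library of 1205Lu.

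The 13 subunits encoded in mitochondrial DNA, the partners of these proteins in complexes I, III, IV and V, did not follow them in every line. In 1205Lu 7 fell and 0 rose, and in WM793 10 fell and 0 rose. In A375 5 rose and 0 fell. Over all genes, 14.4% were lower and 16.5% higher in 1205Lu, 16.9% and 20.4% in WM793, and 19% and 20.5% in A375. With libraries rescaled to the same sum, 7 fell in 1205Lu, 7 fell and 1 rose in WM793, and 6 rose in A375. MT-ND1, a core of the complex I membrane arm, lay at 3699 to 5265 under DMSO and 12081 to 13395 under BRAFi + MEKi in A375, log2 fold change 1.58 ± 0.12 (SE, adjusted p = 3.23e-07). It lay at 13866 to 22134 and 13250 to 14305 in 1205Lu, with overlap, at -0.28 (adjusted p = 0.23). MT-ND5 and MT-CO1, a proton-pumping subunit of complex I and the catalytic subunit of complex IV, rose in A375 by 1.06 (adjusted p = 0.000295) and 0.98 (adjusted p = 0.00201). MT-CO2, which takes electrons from cytochrome c, fell in 1205Lu by a log2 value of -1.55 (adjusted p = 0.00051) and in WM793 by -1.17 (adjusted p = 0.00193), and was at 0.31 (adjusted p = 0.213) in A375. The response of WM793 differed from that of A375 for 12 of the 13 and that of 1205Lu from A375 for 9, each lower than in A375, and 0 differed between 1205Lu and WM793. Copies of mitochondrial sequence in the nuclear genome and the overlapping pairs MT-ATP8 with MT-ATP6 and MT-ND4L with MT-ND4 make these assignments less certain.

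Neighbouring pathways were read from gene lists chosen by function, to be set against the same shares of all genes: 14.4%, 16.9% and 19% lower and 16.5%, 20.4% and 20.5% higher in 1205Lu, WM793 and A375. Of 13 genes of the tricarboxylic acid cycle, which feeds electrons to complexes I and II, 5 (38.5%) fell in 1205Lu, 8 (61.5%) in WM793 and 7 (53.8%) in A375. None rose. With libraries rescaled to the same sum 5 fell in each line. MDH2, mitochondrial malate dehydrogenase, fell by log2 values of -0.94, -1.16 and -1.14, and OGDH, of the 2-oxoglutarate dehydrogenase complex, by -0.84, -0.87 and -0.71. Cytochrome c itself, CYCS, fell in all 3 lines, at -0.82 (adjusted p = 0.00337), -0.79 (adjusted p = 1.82e-05) and -0.47 (adjusted p = 0.00484). Among 18 complex I assembly factors, the falls numbered 6 (33.3%) in 1205Lu, 7 (38.9%) in WM793 and 9 (50%) in A375. The rises numbered 0, 1 and 1. NDUFAF2, NDUFAF4 and ECSIT fell in each, with NDUFAF4 at -0.95, -1.38 and -0.85. Among 25 complex IV assembly factors the directions were mixed: 3 fell and 4 rose in 1205Lu, 8 and 6 in WM793, and 9 and 5 in A375, where the rescaled libraries gave 3 falls and 7 rises. The shares in 1205Lu, 12% lower and 16% higher, and the rises in WM793 and A375, 24% and 20%, were near those of all genes. COX17 and COA7 fell in all 3 lines, and COA5 and PET100 rose in all 3, with COA5 at 1.01, 0.46 and 0.31.

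Of 13 regulators of mitochondrial genes, 6 fell and 2 rose in 1205Lu, 8 and 1 in WM793, and 6 and 2 in A375, the last becoming 3 and 4 with libraries rescaled to the same sum. The falls were 46.2%, 61.5% and 46.2% of the list beside 14.4%, 16.9% and 19% of all genes, while the rises, 15.4%, 7.69% and 15.4%, were below the 16.5%, 20.4% and 20.5% of all genes. MYC fell most. It lay at 2669 to 3458 under DMSO and 467 to 938 under BRAFi + MEKi in 1205Lu, at 1610 to 2118 and 518 to 638 in WM793, and at 318 to 460 and 89.9 to 119 in A375. The log2 fold changes were -2.07 ± 0.22 (SE, adjusted p = 1.67e-05), -1.67 ± 0.17 (SE, adjusted p = 5.57e-06) and -1.92 ± 0.31 (SE, adjusted p = 0.000262). GABPB1, which pairs with GABPA at ETS sites, fell at -0.86, -0.68 and -1.04, whereas GABPA itself rose in A375 (0.49, adjusted p = 0.00632) and was at 0.44 and -0.11 in 1205Lu and WM793. PPARGC1B and PPRC1, relatives of PPARGC1A, fell in all 3 lines, as did TFAM, the packaging and transcription factor of mitochondrial DNA, at -0.62, -0.89 and -0.44. PPARGC1A did not pass in any line, at 0.10 (adjusted p = 0.944), -0.89 (adjusted p = 0.22) and 0.76 (adjusted p = 0.0921). MITF rose in 1205Lu (0.89, adjusted p = 0.0492) and A375 (1.56, adjusted p = 2.37e-06) and was at -0.08 (adjusted p = 0.895) in WM793. NRF1 was at -0.06, -0.07 and -0.00138. The part of these regulators in the members' changes was not tested.

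The second question was whether NR2F1 induction with DOX altered these genes, under the inhibitors or without them. Under BRAFi + MEKi, 0 members passed in 1205Lu and 0 in WM793, where 0.334% and 0.204% of all genes did, and 1 passed in A375, where 1.52% of all genes did and 0.152% were lower. Under DMSO, 0 passed in any line, where 0.00903%, 0.512% and 0.0492% of all genes did in 1205Lu, WM793 and A375. At an unadjusted p under 0.05, limma gave 0, 3 and 2 of the 81 members tested under BRAFi + MEKi, where 9.72%, 7.95% and 10.6% of all genes passed that mark. Under DMSO it gave 6, 5 and 2 members, where 6.85%, 9.92% and 7.95% of all genes passed. Median log2 fold changes of the members under BRAFi + MEKi were -0.0197, 0.0225 and -0.0346, beside -0.00918, 0.0016 and -0.00128 over all genes. Under DMSO they were -0.0723, 0.026 and -0.11, beside 0, 0.00152 and 0. These comparisons share libraries with that of the inhibitors, so their values are given side by side and not related to each other. The difference between the DOX effects with and without the inhibitors was called for 0 members in each line, and 0%, 0% and 0.46% of all genes; 6, 1 and 1 members had an unadjusted p under 0.05, as had 5.72%, 5.72% and 7.25% of all genes. Between lines, the DOX effect under BRAFi + MEKi differed for 0 members in each of the 3 pairs (0.138%, 0.179% and 0.881% of all genes), with 0, 1 and 3 members at an unadjusted p under 0.05, a mark passed by 7.11%, 8.07% and 8.36% of all genes.

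**Figure D4:**
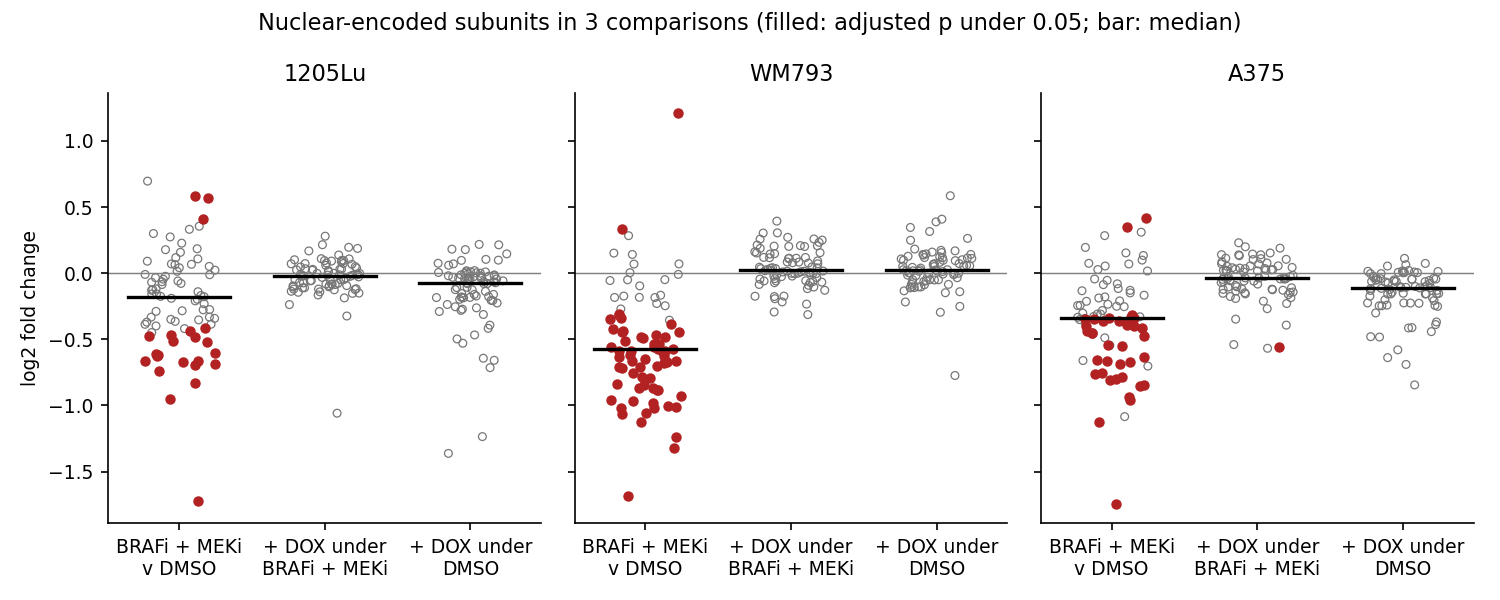
Log2 fold changes of the tested members for BRAFi + MEKi against DMSO, DOX under BRAFi + MEKi, and DOX under DMSO, in 1 panel per line. Filled points passed an adjusted p of 0.05 and bars are medians; 20 to 59 members fell with the inhibitors, and 1 point, UQCRFS1 in A375, passed with DOX.

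UQCRFS1, the Rieske iron-sulfur protein of complex III, was the member called with DOX. In A375 it held 3050, 3049 and 2496 under DMSO, 1794, 2014 and 1700 under DMSO + DOX, 2248, 2245 and 2163 under BRAFi + MEKi and 1532, 1558 and 1436 under BRAFi + MEKi + DOX. The DOX libraries lay below their controls in both backgrounds without overlap. The log2 fold change was -0.56 ± 0.11 (SE, adjusted p = 0.0131) under BRAFi + MEKi and -0.64 ± 0.11 (SE, adjusted p = 0.0656) under DMSO. The first lost its call without the first or second BRAFi + MEKi library or the third BRAFi + MEKi + DOX library, with adjusted p of 0.0782, 0.0763 and 0.0619. The second passed in 4 of the alternatives: with replicates blocked by number (adjusted p = 0.0094), with array weights (0.0204), with a filter at a mean of 30 (0.0394) and without the third DMSO library (0.0227). In the others its adjusted p ran from 0.0588 to 0.33.

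In WM793, UQCRFS1 held 2432, 2728 and 2465 under DMSO and 2064, 2137 and 2356 under DMSO + DOX, then 1988, 2304 and 1777 under BRAFi + MEKi and 1528, 1619 and 1716 under BRAFi + MEKi + DOX. Again neither pair overlapped, but the log2 fold changes of -0.22 ± 0.11 (SE, adjusted p = 0.563) and -0.31 ± 0.11 (SE, adjusted p = 0.451) did not pass. In 1205Lu the values were 1810, 2859 and 2090 under DMSO, 1620, 2129 and 2157 under DMSO + DOX, 1474, 2013 and 1824 under BRAFi + MEKi and 1437, 1837 and 1685 under BRAFi + MEKi + DOX. Those groups overlapped, at -0.18 (adjusted p = 0.901) and -0.09 (adjusted p = 0.935). Under BRAFi + MEKi, where same-numbered libraries of 1205Lu deviated together, each DOX library lay below the control of its own number. The DOX effect under BRAFi + MEKi in A375 did not differ past the threshold from that in 1205Lu (log2 difference for 1205Lu minus A375 0.46, adjusted p = 0.526) or in WM793 (for WM793 minus A375 0.24, adjusted p = 0.855). UQCRFS1 lies at chr19:29205320-29213151 on the minus strand of GRCh38, and 3 pseudogenes are named after it, so a part of its reads could be assigned to them or from them. This limit is not particular to UQCRFS1. Of the 87 members, 49 have a pseudogene named after them and 28 share exon sequence with a gene on the same strand.

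**Figure D5:**
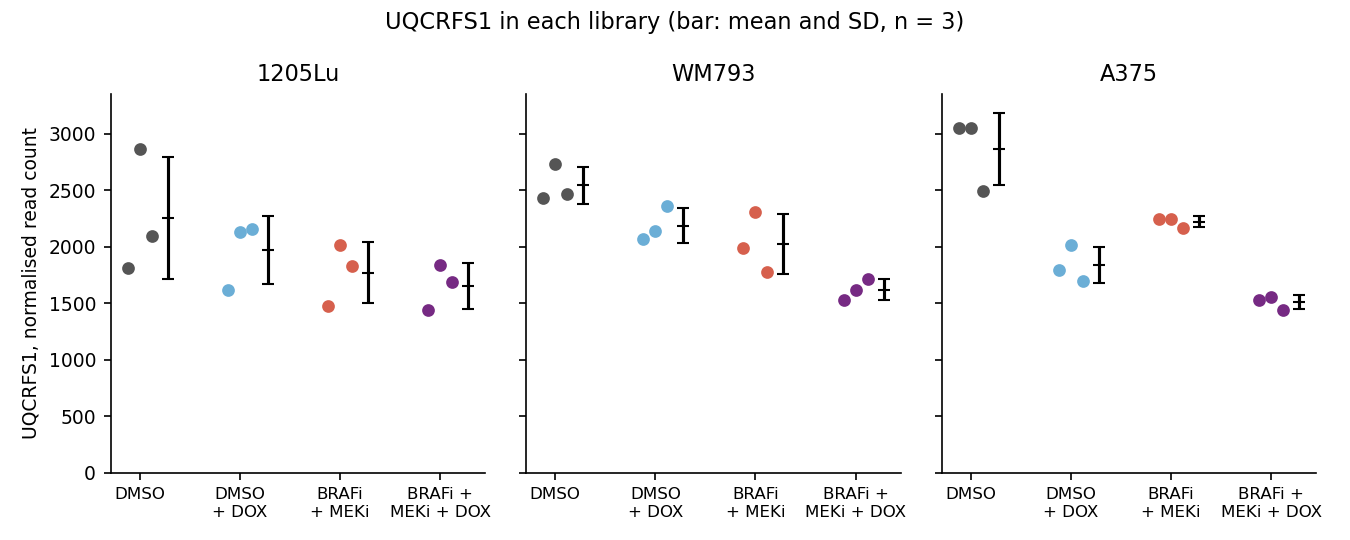
UQCRFS1 in each library as normalised read count, in 1 panel per line with treatments on the x axis; bars are mean and SD of 3 libraries. DOX libraries lie below their controls without overlap in WM793 and A375 and overlap them in 1205Lu.

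Counting UQCRFS1, DOX libraries lay wholly above or below their controls in few cases: 1 above and 5 below under BRAFi + MEKi in 1205Lu, 7 and 3 in WM793, and 7 and 2 in A375. Over all genes these shares were 6.06% and 6.53%, 6.94% and 7.04%, and 8.28% and 7.13%. UQCRC1 was the largest of those in 1205Lu, going from 3427, 4184 and 3432 to 2905, 3060 and 2821, log2 fold change -0.32 ± 0.16 (SE, adjusted p = 0.538). Under DMSO the counts were 1 and 9 in 1205Lu, 3 and 6 in WM793, and 0 and 6 in A375, with 5.35% and 6.95%, 6.8% and 6.48%, and 5.55% and 6.12% of all genes. NDUFS7, a core iron-sulfur subunit of complex I, had the largest of these after COX6B2 in 1205Lu at -1.24 ± 0.23 (SE, adjusted p = 0.412). COX6B2, low throughout, lay below its DMSO control without overlap in 1205Lu, WM793 and A375. Its log2 changes of -1.36 (adjusted p = 0.67), -0.77 (adjusted p = 0.522) and -0.69 (adjusted p = 0.813) did not pass. NDUFB8, SDHB and ATP5F1B, which fell in all 3 lines with the inhibitors, are given as examples of levels with DOX added. NDUFB8 held 3686, 4217 and 3993 under BRAFi + MEKi + DOX in 1205Lu, 3195, 3779 and 3678 in WM793 and 2286, 2657 and 1892 in A375. Its log2 change with DOX under the inhibitors was 0.03 (adjusted p = 0.983), 0.30 (adjusted p = 0.629) and -0.04 (adjusted p = 0.973). SDHB held 1551, 1394 and 1477 in 1205Lu, 1356, 1319 and 1469 in WM793 and 1972, 2044 and 1832 in A375, with log2 changes of 0.02 (adjusted p = 1), -0.09 (adjusted p = 0.877) and -0.05 (adjusted p = 0.946). ATP5F1B held 12610, 16839 and 16039 in 1205Lu, 15073, 13300 and 13628 in WM793 and 19076, 20116 and 18937 in A375, with log2 changes of 0.22 (adjusted p = 0.756), 0.11 (adjusted p = 0.825) and 0.06 (adjusted p = 0.901). A p that misses the threshold with 3 libraries a group does not show that DOX left these genes unaltered.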

How the data were processed

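RNA was sequenced in 36 libraries of 3 melanoma lines (TruSeq RNA v2). According to the submitters' processing notes and the study's methods, the authors mapped the libraries to GRCh38 by means of STAR, estimated gene abundance in RSEM and scaled the values with DESeq2. The deposited files hold 1 normalised signal per gene and library, which is neither whole reads nor per length, so no count model was fitted. Rows of the Y copy of the pseudoautosomal region (44) were left out. Gene names and classes came from GENCODE 44 by identifier, which matched 60401 of 60612 genes.

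Log2(value + 1) was fitted with limma 3.58.1 in R 4.3.3 (lmFit, eBayes with trend), per line for treatment comparisons and over all lines for comparisons of lines, on genes whose mean reached 1 in some group. P-values are two-sided and Benjamini-Hochberg adjusted over all genes tested, with 0.05 as threshold, and the pipeline was tested on simulated data. Replicates were independent experiments. Promoters came from RefSeq (GRCh38.p14).

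Named genes were the core and isoform members of each complex, the 3 largest called rises and falls per line, members called in all 3 lines, listed regulators and NR2F1. One gene under this rule is counted but not reported here by name, and the plot of DMSO levels leaves it out. The members and lists were chosen with earlier results of these data known. Depth is unknown, so no counting interval is given.

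Same-numbered libraries deviated together, with every pair over 0.1, in the comparison of BRAFi + MEKi + DOX with BRAFi + MEKi in 1205Lu (r = 0.109 to 0.274 over genes) and WM793 (0.105 to 0.251). The replicate block changed no member count there. As alternatives, the pseudocount was set to 0.1, and fits were made without a filter, with a filter at a mean of 30, with only the libraries compared, with a replicate block, with array weights, after rescaling to the same sum or 75th percentile, and without each library in turn.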

Additional observations from a re-analysis of the deposited data

Results flagged for a closer look

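Responses to BRAFi + MEKi that differed between lines, by the limma test of the difference, were picked out for a closer look. The groups have 3 libraries, too few to test any one as standing apart. Between 1205Lu and WM793, 22 members had a higher response in 1205Lu, led by NDUFA4 at a log2 difference of 1.13, COX7C at 0.93 and COX5B at 0.92, where 6.52% of all genes were higher. Between 1205Lu and A375, 5 of 81 members had a higher response in 1205Lu and 2 a lower one, where 8.08% of all genes were higher and 6.65% lower, so neither count exceeded the share over all genes. COX6B2 led at 2.44, followed by UQCR10 at 0.88 and COX7B at 0.63. NDUFB2 and NDUFB8 were lower, both at -0.59. Between WM793 and A375, 3 members were higher in WM793, namely COX6B2 at 2.95, UQCR10 at 0.81 and UQCRC1 at 0.67, and 19 were lower, led by NDUFB2 at -1.08, ATP5F1E at -0.86 and ATP5MF-PTCD1 at -0.82. Over all genes 12.7% were higher and 10.1% lower, so only the lower count exceeded that share. ATP5MF-PTCD1 is a readthrough gene that shares exons with ATP5MF, so its reads are uncertain.

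Mitochondrially encoded subunits differed too, each with the lower response outside A375. Between 1205Lu and A375, 9 of 13 differed, led by MT-ND1 and MT-CO2, both at -1.86, where 6.65% of all genes were lower. Between WM793 and A375, 12 of 13 differed, led by MT-ND1 at -2.13 and MT-ND6 at -2.06, where 10.1% of all genes were lower. MT-ND6 had the widest SE of the 13 in that test, 0.585, and its own change in A375 was not called (0.60, adjusted p = 0.26). Between 1205Lu and WM793 no mitochondrially encoded subunit passed, as 6.52% of all genes did in the higher direction and 7.94% in the lower.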

How the results depend on the processing

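No named member that passed the threshold changed direction under any alternative, but calls were lost. With no library left out, 38 values of named members lost their call, 21 gained one, 42 that did not pass changed sign and 2405 kept direction and call. With single libraries left out, 131 lost their call, 5 gained one, 188 that did not pass changed sign and 2088 kept direction and call. With libraries rescaled to the same sum, inhibitor comparisons gave 6 members higher in 1205Lu, 5 in WM793 and 5 in A375. The count lower in A375 was 17; the response of 1205Lu was then above that of WM793 for 13 members and above that of A375 for 2. Rescaling to the same 75th percentile gave 5 higher in 1205Lu and 0 members with a 1205Lu response below that of A375. A filter at a mean of 30 gave 5 higher in 1205Lu and, for DMSO + DOX against DMSO in A375, 1 lower; no filter gave 1 higher in A375 and 1 with a 1205Lu response below A375. Fits of only the libraries compared gave 1 higher in WM793, 53 lower in A375, 2 with a 1205Lu response above A375 and 5 with a WM793 response above A375. Array weights gave 1 lower with DMSO + DOX in A375, 9 higher and 4 lower for 1205Lu against A375 in response, and 5 higher for WM793 against A375. The cause of these changes was not tested.

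Outside the 2 comparisons named above, some pairs of same-numbered libraries correlated below 0.1 (lowest 0.029), so the numbers were not taken as pairs there. All correlations were positive, and in 22 of 27 cases over all comparisons a library correlated best with its own number, a hint from the data, not the design, that a number marks a shared set. With the replicate block, 6 members were higher with the inhibitors in 1205Lu, 1 was lower with DMSO + DOX in A375, 7 were higher in 1205Lu than in WM793 under DMSO, and 9 had a 1205Lu response above A375. The block left 21 members lower in all 3 lines, a count without a share of all genes under that fit.

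Leaving out single libraries, members lower with the inhibitors ran from 9 to 24 in 1205Lu, 50 to 58 in WM793 and 18 to 37 in A375. Those higher from 1 to 3, 0 to 2 and 0 to 2. Those lower with DOX ran from 0 to 1 in A375 under the inhibitors, and from 0 to 1 under DMSO in 1205Lu and in A375. Members with a higher response in 1205Lu ran from 14 to 25 against WM793 and from 1 to 5 against A375, and with a lower one from 0 to 4 against A375. The adjusted p of UQCRFS1 with DOX under the inhibitors in A375 ran from 0.00127 to 0.0782 over all alternatives. With 3 libraries a group and no depth given, small differences of single members are not detectable.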

Other observations

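Of 13 genes of coenzyme Q synthesis, the carrier between complexes I, II and III, 2 fell and 2 rose with BRAFi + MEKi in 1205Lu, 4 fell and 1 rose in WM793, and 5 fell and 3 rose in A375. In 1205Lu these were 15.4% each way, near the 14.4% lower and 16.5% higher of all genes. The falls were 30.8% in WM793 and 38.5% in A375, beside 16.9% and 19% of all genes, and the rises 7.69% and 23.1%, beside 20.4% and 20.5%. PDSS1, which makes the side chain, fell in all 3 lines, at log2 fold changes of -1.45 (adjusted p = 0.00158), -1.29 (adjusted p = 0.00184) and -1.06 (adjusted p = 0.000415). COQ2, which joins the side chain to the ring, fell in 1205Lu (-1.35, adjusted p = 0.00133) and A375 (-1.08, adjusted p = 0.00019) and was at -0.38 (adjusted p = 0.0562) in WM793. COQ8A rose in 1205Lu (0.75, adjusted p = 0.00687) and A375 (0.68, adjusted p = 0.00154) and was at -0.04 (adjusted p = 0.919) in WM793. ESRRG, a nuclear receptor of the estrogen-related family, rose in 1205Lu (2.01, adjusted p = 0.0118) and WM793 (2.47, adjusted p = 0.0202) and was at 0.86 (adjusted p = 0.0693) in A375, while its relative ESRRA fell in 1205Lu (-0.72, adjusted p = 0.0183) and WM793 (-0.77, adjusted p = 0.00141).

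Members moved together between the libraries of a group. The first DMSO + DOX library of 1205Lu was the lowest of its 3 for 76 of the 81 members with a value in every library, the first DMSO library for 70, and the third BRAFi + MEKi + DOX library of A375 for 65. In the second BRAFi + MEKi + DOX library of A375, 62 members were at the highest value of the group.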
